A study of Mus musculus with 37 samples.

Results

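The expression of 9 genes of Hedgehog and bone morphogenetic protein (BMP) signaling, Shh, Ptch1, Smo, Gli1, Gli2, Hhip, Bmp4, Bmp5 and Grem1, was followed through the upper urinary tract and the bladder of mice given the carcinogen BBN. The genes were taken by symbol, and all 9 were found among the 24421 gene symbols of the count table, which covers 37 RNA sequencing libraries. The animals were wild-type female BALB/c mice. BBN, N-butyl-N-(4-hydroxybutyl) nitrosamine, was given in drinking water for 18 weeks to 10 mice, and 3 untreated mice received tap water. UT denotes the side of the upper tract with cancer after BBN (11 libraries from 10 mice, both sides of mouse 5), and UN the noncancerous side (7 libraries from 7 of these mice). U denotes the ureters of the untreated mice (6 libraries, right and left of 3 mice). The bladders of the 10 BBN-treated mice (BBN bladder) and of the 3 untreated mice (untreated bladder) were sequenced as well. The library name of the BBN bladder of mouse 6 carries a T where the others carry an N, although its title says only bladder. Each sample is a whole piece of tissue.

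Hedgehog signaling starts with a secreted ligand. Sonic hedgehog (Shh) is made by epithelium, including the basal cells of the urothelium, and acts mostly on the mesenchymal cells beneath. There it binds the receptor Ptch1, which otherwise holds back the transducer Smo, and the signal ends at the transcription factors Gli1, Gli2 and Gli3. Gli1, Ptch1 and Hhip, a decoy that binds the ligand, are themselves transcribed when the pathway is active, so that their transcripts are common readouts of it. In the bladder and ureter the signal from the urothelium shapes the layers of stroma and smooth muscle, and BMP4 and BMP5 are ligands made in that stroma, while gremlin 1 (Grem1) is a secreted antagonist of BMP ligands.

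The libraries held from 9725454 to 16736705 counts in UT, 4675780 to 14974723 in UN, 12980830 to 18794405 in U, 3558391 to 15105300 in BBN bladder and 14349568 to 16618356 in untreated bladder. Of these, 4 had under 8000000 counts, namely UN 6 and BBN bladders 1, 3 and 4, and these 4 also have the lowest RNA integrity in the quality table of the study. Markers of the tissue were compared as the sum over each list in counts per 1000000 of the library total (CPM). The uroplakins and Krt20, 6 markers of luminal urothelium, reached 14957 to 15629 CPM in untreated bladder and 974 to 1967 CPM in U. In BBN bladder they were at 348 to 2252 CPM, in UT at 139 to 2088 CPM and in UN at 8.96 to 2399 CPM. The library labelled UN 2 held almost no urothelium by these markers (8.96 CPM) or by 9 general and basal markers (40.4 CPM, where the other UN libraries had 867 CPM or more). UT 4 had 2326 CPM of 8 kidney tubule markers, against at most 25.5 CPM in any other ureter library. Adipocyte markers, 7 genes, ran from 13095 to 17617 CPM in U, from 2243 to 13316 CPM in UN, from 10.2 to 8985 CPM in UT and from 17.5 to 1264 CPM in BBN bladder. No gene of these lists was at 0 in a whole group.

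The promoters of Gli2, Hhip and Bmp5 are shown because these genes were called in at least 2 comparisons below and hold the core of the Gli binding motif. That of Ptch1 is shown as the promoter of a common readout of the pathway, also called in several comparisons, whose window lacks the core. The Ptch1 window lies inside the locus (63508328 to 63573598), before an internal start, and the outer start of the locus was not searched. RefSeq (build GRCm38.p6) gave promoters for 7 of the 9 genes, none for Shh and Gli1. The 250 bases before the annotated start are printed on the strand of the gene, with this core, GGGTGG, or its reverse complement CCACCC, in capitals.
Ptch1, chr13:63565736-63565985, minus strand: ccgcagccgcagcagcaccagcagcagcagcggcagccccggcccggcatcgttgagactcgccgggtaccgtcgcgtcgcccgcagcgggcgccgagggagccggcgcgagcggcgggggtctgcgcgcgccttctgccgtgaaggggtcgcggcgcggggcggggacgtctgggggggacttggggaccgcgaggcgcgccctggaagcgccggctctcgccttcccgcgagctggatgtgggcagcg
Gli2, chr1:119053620-119053869, minus strand: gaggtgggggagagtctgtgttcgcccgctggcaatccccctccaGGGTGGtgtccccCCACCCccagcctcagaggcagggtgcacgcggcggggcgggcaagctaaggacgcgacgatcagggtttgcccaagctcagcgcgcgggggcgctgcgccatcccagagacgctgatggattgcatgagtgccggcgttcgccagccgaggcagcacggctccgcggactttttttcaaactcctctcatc
Hhip, chr8:80058009-80058258, minus strand: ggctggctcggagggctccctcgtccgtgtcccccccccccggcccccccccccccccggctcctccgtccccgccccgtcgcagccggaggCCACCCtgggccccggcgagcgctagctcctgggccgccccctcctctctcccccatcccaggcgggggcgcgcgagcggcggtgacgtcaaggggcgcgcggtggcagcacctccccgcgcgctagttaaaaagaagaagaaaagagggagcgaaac
Bmp5, chr9:75775115-75775364, plus strand: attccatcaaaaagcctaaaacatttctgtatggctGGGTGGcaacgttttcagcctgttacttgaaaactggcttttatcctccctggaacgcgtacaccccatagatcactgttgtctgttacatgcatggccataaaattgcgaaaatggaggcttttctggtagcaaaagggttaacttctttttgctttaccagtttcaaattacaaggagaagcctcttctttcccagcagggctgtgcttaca
The core was found on either strand in 5 of the 7 promoters (Smo, Gli2, Hhip, Bmp5 and Grem1) and in 28.1% of all 32851 RefSeq promoters over the same window. The longer motif TGGGTGGTC (or GACCACCCA), which holds the core, was in none of the 7 and in 0.225% of all promoters. A match is only a match of letters, and no binding was measured here.

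Levels were first compared between genes per length, as CPM divided by the kilobases of exon of each gene in GENCODE vM21. In untreated bladder Shh was the highest of the 9, with a median of 23.2 CPM per kb, ahead of Bmp4 (12.5 CPM per kb) and Smo (11.7 CPM per kb), while Gli1 (0.627 CPM per kb) and Grem1 (0.420 CPM per kb) were the lowest. In U the median was 7.91 CPM per kb for Smo, 2.92 for Shh and 2.84 for Bmp4, and in UT it was 9.55 CPM per kb for Smo, 3.43 for Bmp4 and 0.607 for Shh. Between groups, levels are given in CPM. For Shh, Ptch1 and Hhip every untreated bladder lay above every one of the other 34 libraries, 3 of the 9 genes, where 5.70% of the 18799 genes tested over both organs did so. Among U, UN, UT and BBN bladder, the ranges of groups next to each other in the order of their medians overlapped for all of these genes except Grem1, which was at 0 in U.

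**Figure D1:**
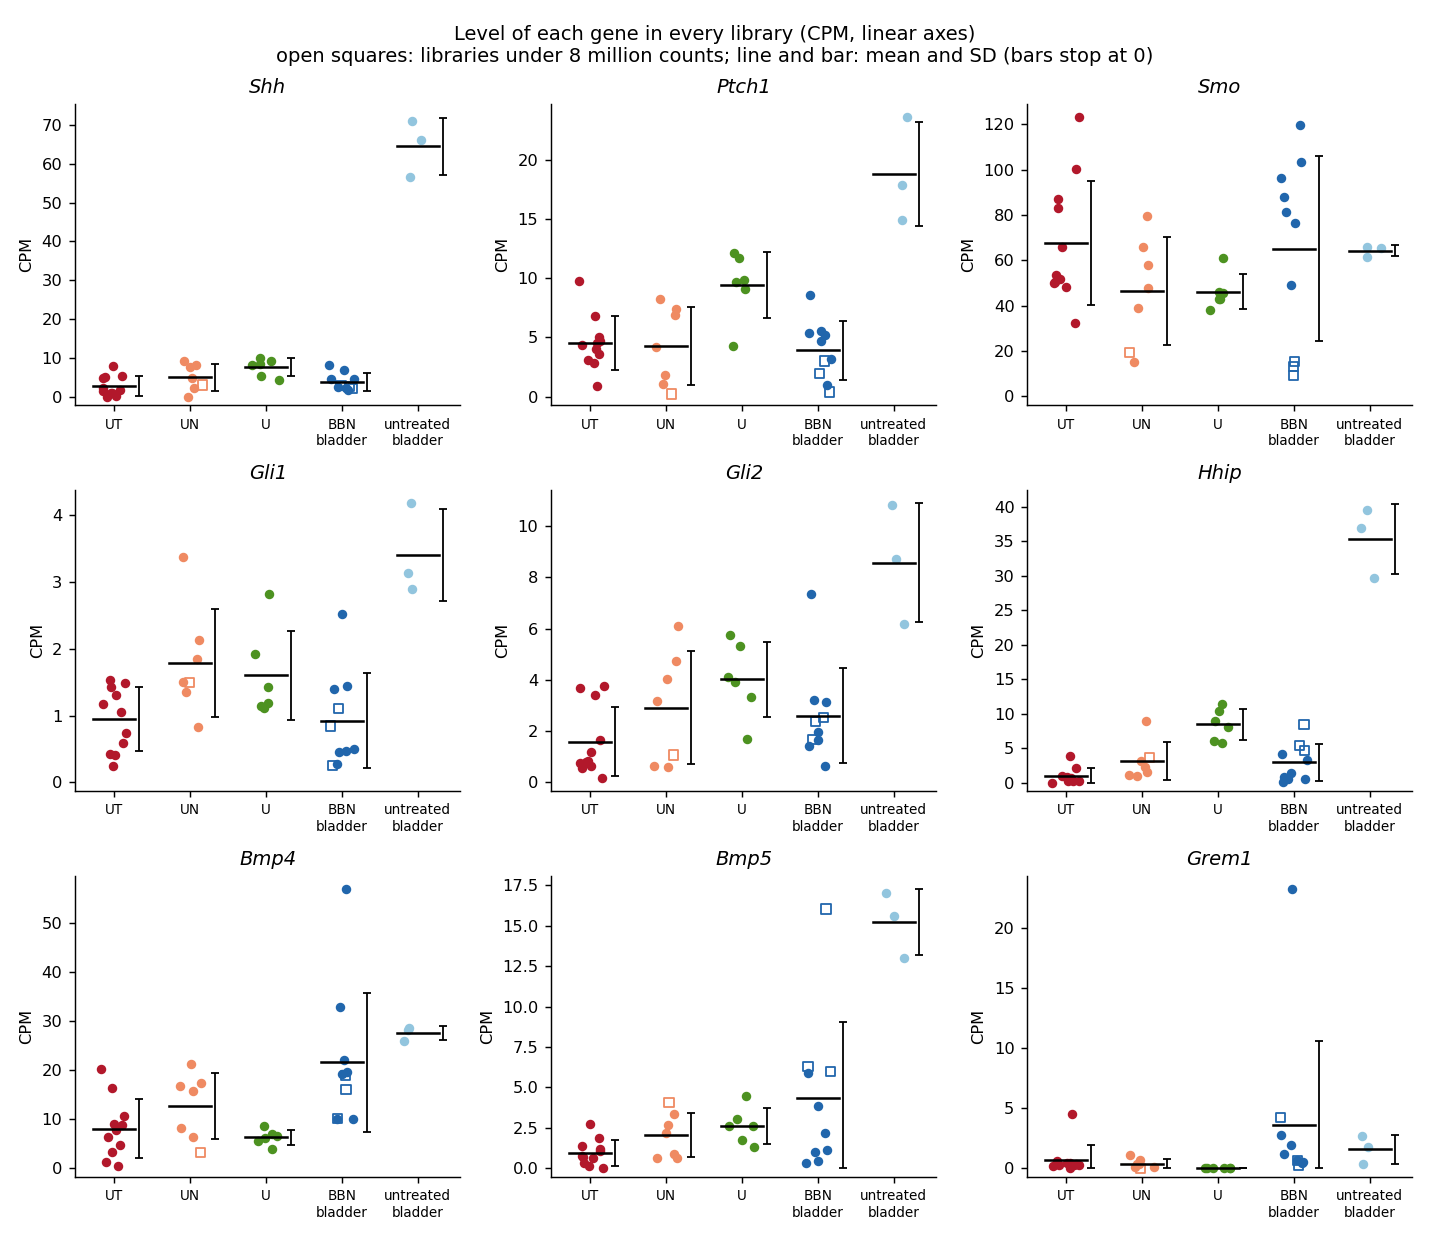
Level of each of the 9 genes in every library, in CPM on linear axes, for UT, UN, U, BBN bladder and untreated bladder. Points are libraries, open squares mark the 4 libraries under 8000000 counts, the line is the mean and the bar the SD, stopped at 0. Shh lies between 56.5 and 71.1 CPM in the untreated bladders and at 10.1 CPM or less in all other libraries.

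The BBN bladders were compared with the untreated bladders to see how the pathway stands in the organ after BBN. Shh, Hhip, Ptch1 and Gli2 were lower in BBN bladder, Smo and Bmp4 did not pass the test in either direction, and no member was higher. A gene was called when its adjusted p (Benjamini-Hochberg over all genes tested) was under 0.1 and its fold change at least 2, the thresholds of the study. By edgeR's quasi-likelihood test 4 of the 9 members were called lower, where 5.74% of all 18064 genes tested were called lower and 7.61% higher. The levels of 4 members, Shh, Ptch1, Gli1 and Hhip, did not overlap between the groups, and 12.0% of all genes tested had every BBN bladder below every untreated bladder. In whole tissue, fewer cells of a type and less RNA per cell cannot be told apart.

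Shh, the ligand (chromosome 5, 28456815 to 28467256, minus strand), had 56.5, 66.1 and 71.1 CPM in the untreated bladders. The BBN bladders had 1.63 CPM at the lowest, 2.68 CPM at the median and 8.18 CPM at the highest. Every BBN bladder was thus far under the untreated range. The fitted difference was 14.4-fold, a log2 fold change of -3.85 (standard error, SE, 0.32, and edgeR adjusted p = 1.57e-05), and Shh was called in all 13 fits that each left out a library. Luminal urothelium markers were lower in BBN bladder as well (348 to 2252 CPM against 14957 to 15629 CPM). The sum of the general and basal markers ranged from 1665 to 18861 CPM around the 9568 to 10557 CPM of untreated bladder, but its genes went both ways. Medians of Krt5, Krt14, Krt19, Epcam and Cdh1 were higher in BBN bladder, and those of Trp63, Krt7, Krt8 and Krt18 lower. Krt14 had a median of 1782 CPM in BBN bladder and 9.45 CPM in untreated bladder, and Trp63 181 CPM and 380 CPM. The part of these cells in the Shh result was not tested. Reads of Shh and of an antisense gene that overlaps it cannot be told apart, since the counting is not stated to use strand.

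Among the genes that receive the signal, the receptor Ptch1 (chromosome 13, 63508328 to 63573598, minus strand) had 14.9, 17.9 and 23.6 CPM in untreated bladder. In BBN bladder it ranged from 0.384 to 8.58 CPM with a median of 3.92 CPM. The groups did not overlap, and Ptch1 was 4.25-fold lower (log2 fold change -2.09, SE 0.46, edgeR adjusted p = 0.00949). Smo, the transducer held back by Ptch1 (chromosome 6, 29735503 to 29761365, plus strand), had 61.6, 65.5 and 65.7 CPM in untreated bladder and 9.15 to 119.6 CPM (median 78.9 CPM) in BBN bladder. BBN bladders 1, 3 and 4, the libraries with few counts, were the lowest for Smo, and 6 of the other 7 lay above all untreated bladders. Its log2 fold change was 0.15 with a 95% interval of -0.90 to 1.21, which leaves room for changes of about the size of the fold threshold in both directions. Without those 3 libraries it was 0.52, past the adjusted p (0.091 from edgeR) but not the fold threshold.

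Gli2, the main activator among the Gli factors (chromosome 1, 118834132 to 119053619, minus strand), had 6.19, 8.73 and 10.8 CPM in untreated bladder. In BBN bladder it ranged from 0.633 to 7.35 CPM (median 2.18 CPM), and only BBN bladder 2 reached into the untreated range. Gli2 was called 2.74-fold lower (log2 fold change -1.45, SE 0.51, edgeR adjusted p = 0.0925). This call was close to the threshold. It was lost in 10 of 13 fits without a library, all but those without BBN bladder 1, 2 or 3, among them the fits without BBN bladder 6 with the T in its name (log2 fold change -1.31, edgeR adjusted p = 0.112), and without untreated bladder 1, where the edgeR adjusted p was 0.289. It was also lost with RLE normalization (edgeR adjusted p = 0.13), without the filter on low counts (0.114) and with mice 1 to 7 (0.112).

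Gli1, itself a target of the pathway (chromosome 10, 127329882 to 127341974, minus strand), had 2.89, 3.13 and 4.18 CPM in untreated bladder and 0.256 to 2.52 CPM (median 0.674 CPM) in BBN bladder. All 10 BBN bladders were below the untreated ones, but Gli1 was not called (log2 fold change -1.60, SE 0.68, edgeR adjusted p = 0.143). Without the 3 BBN bladders under 8000000 counts it was called (log2 fold change -1.72, edgeR adjusted p = 0.0523). It was called as well with RNA integrity as a covariate (edgeR adjusted p = 0.0664), by DESeq2 (adjusted p = 0.0711) and by voom (0.00331). With RLE normalization, without the filter on low counts and with mice 1 to 7 it was not called. The locus overlaps Arhgap9 on the opposite strand, whose reads cannot be told apart from those of Gli1.

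Hhip, the decoy for the ligand (chromosome 8, 79965851 to 80058006, minus strand), had 29.7, 36.9 and 39.5 CPM in untreated bladder. In BBN bladder it ranged from 0.132 to 8.43 CPM with a median of 2.35 CPM, again without overlap. Hhip was 8.30-fold lower (log2 fold change -3.05, SE 0.86, edgeR adjusted p = 0.0361). The 3 highest values in BBN bladder were those of libraries 3, 1 and 4. Without these 3 the log2 fold change was -4.49 (edgeR adjusted p = 0.000808), and without untreated bladder 1 or 3 the call was lost (adjusted p = 0.125 and 0.117).

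Of the BMP genes, the ligand Bmp4 (chromosome 14, 46383520 to 46390669, minus strand) had 26, 28.2 and 28.6 CPM in untreated bladder and 9.997 to 56.8 CPM (median 19.1 CPM) in BBN bladder. The groups overlapped, and its log2 fold change was -0.06 with a 95% interval of -0.96 to 0.84. Reads of Bmp4 and of Gm15217 and Gm15222 on the opposite strand cannot be told apart, nor those of Bmp5 and the antisense gene Gm26903. Bmp5, a further ligand (chromosome 9, 75775364 to 75900310, plus strand), had 13.0, 15.6 and 17.0 CPM in untreated bladder. In BBN bladder it ranged from 0.360 to 16.0 CPM (median 3.02 CPM), and only BBN bladder 3, the library with the fewest counts, reached the untreated range. It was not called (log2 fold change -1.22, SE 0.93, edgeR adjusted p = 0.388). Without the 3 BBN bladders under 8000000 counts Bmp5 was called lower (log2 fold change -2.82, SE 0.63, edgeR adjusted p = 0.0093). With RNA integrity as a covariate it was called too (log2 fold change -2.73, edgeR adjusted p = 0.00775). Grem1, the antagonist (chromosome 2, 113746164 to 113758646, minus strand), had 0.333, 1.74 and 2.71 CPM in untreated bladder and 0.281 to 23.2 CPM (median 0.930 CPM) in BBN bladder. It was not called (log2 fold change 1.29, SE 1.19, edgeR adjusted p = 0.486). BBN bladder 2 alone held 23.2 CPM, and without it the log2 fold change of Grem1 was 0.32.

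Markers of the stroma were also lower in BBN bladder. Smooth muscle markers, 10 genes, summed to 9622 to 11517 CPM in untreated bladder and 1072 to 7671 CPM in BBN bladder. Fibroblast markers, 8 genes, summed to 5181 to 7560 CPM in untreated bladder and 757 to 5564 CPM in BBN bladder, and only BBN bladder 2 reached the untreated range. BBN bladder 2 was also the highest of its group for Gli2, Bmp4 and Grem1. The part of these cells in the results was not tested.

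**Figure D2:**
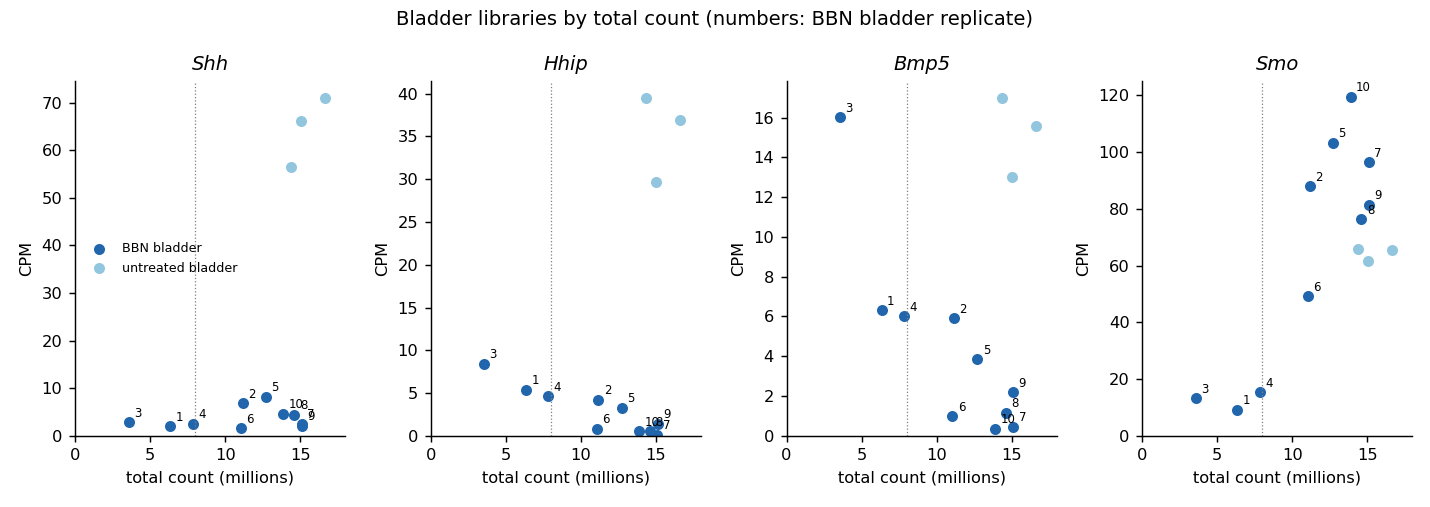
CPM of Shh, Hhip, Bmp5 and Smo (vertical axes) against the total count of the library (horizontal axis) in the 10 BBN bladders, numbered by replicate, and the 3 untreated bladders. The dotted line marks 8000000 counts. BBN bladders 1, 3 and 4 to its left are the highest of their group for Hhip and Bmp5 and the lowest for Smo, while Shh is at 8.18 CPM or less in all 10.

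The ureters and bladders of the untreated mice were compared to see how the pathway stands in both organs without BBN. Of the 8 members tested, Shh, Hhip, Bmp4 and Bmp5 were called lower in U than in untreated bladder and none higher, where 14.3% of 15328 genes tested were called lower and 15.7% higher. Every U library was below every untreated bladder in CPM for all 9 genes. This says little by itself, as 47.3% of all genes tested had every U library below every untreated bladder, and the fold changes below rest on TMM normalization, which allows for such a shift.

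Shh had 4.21 to 10.1 CPM in U (median 8.31 CPM), 6.59-fold under untreated bladder (log2 fold change -2.72, SE 0.20, edgeR adjusted p = 2.68e-07). The decoy Hhip had 5.76 to 11.4 CPM in U (median 8.52 CPM), 3.24-fold lower (log2 fold change -1.70, SE 0.18, edgeR adjusted p = 5.50e-06). For both genes the highest U library was far below the lowest untreated bladder. The ligand Bmp4 had 4.03 to 8.57 CPM in U (median 6.39 CPM), 3.35-fold lower (log2 fold change -1.74, SE 0.17, edgeR adjusted p = 2.91e-06). Bmp5 had 1.34 to 4.47 CPM in U (median 2.60 CPM), 4.43-fold lower (log2 fold change -2.15, SE 0.28, edgeR adjusted p = 3.13e-05). These 4 calls were kept with the mouse as a block and with 1 library per mouse and organ.

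The receptor and the Gli factors differed less between the organs. Ptch1 had 4.30 to 12.1 CPM in U (median 9.74 CPM), with a log2 fold change of -0.62 (SE 0.23, edgeR adjusted p = 0.0371). Gli1 had 1.11 to 2.82 CPM (median 1.30 CPM) and a log2 fold change of -0.70 (SE 0.30, edgeR adjusted p = 0.0634). Gli2 had 1.69 to 5.74 CPM (median 4.02 CPM) and a log2 fold change of -0.72 (SE 0.28, edgeR adjusted p = 0.0467). These 3 genes passed the adjusted p but not the fold threshold. Smo had 38.3 to 61.1 CPM (median 44.4 CPM), and its log2 fold change of -0.10 had a 95% interval of -0.35 to 0.15. Luminal urothelium markers were lower in U (974 to 1967 CPM) than in untreated bladder, and so were general and basal urothelium markers (1122 to 2137 CPM against 9568 to 10557 CPM), smooth muscle markers (1907 to 3521 CPM against 9622 to 11517 CPM) and fibroblast markers (1732 to 3331 CPM against 5181 to 7560 CPM), all without overlap, while adipocyte markers were at 13095 to 17617 CPM in U and at 75.0 to 548 CPM in untreated bladder. Their part in these differences was not tested.

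The tumor side of the upper tract was compared with normal ureter in a fit of the 24 ureter libraries. Hhip, Shh, Bmp5, Gli2, Ptch1 and Gli1 were lower in UT than in U, and Smo and Bmp4 did not pass. Thus 6 of the 8 members tested were called lower, where 12.3% of the 15662 genes tested were called lower and 18.6% higher. Hhip was the only member with every UT library below every U library, where 4.38% of all genes tested lay apart in that direction. Grem1, which was not tested, was at 0 in all U libraries and was seen in all UT libraries.

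Hhip had 0 CPM in UT 2, 0.545 CPM at the median and 3.93 CPM at the highest in UT, against 5.76 to 11.4 CPM in U. It was 11-fold lower (log2 fold change -3.46, SE 0.60, edgeR adjusted p = 0.000161) and stayed called in all 24 fits without a library and under all 9 other alternatives. The ligand Shh had 0 CPM in UT 2, a median of 1.73 CPM and 7.86 CPM at the highest, in UT 6, and 4.21 to 10.1 CPM in U. The ranges overlapped, and Shh was 3.31-fold lower (log2 fold change -1.72, SE 0.67, edgeR adjusted p = 0.0387). The BMP ligand Bmp5 had 0 to 2.74 CPM in UT (median 0.779 CPM) and 1.34 to 4.47 CPM in U, and was 3.25-fold lower (log2 fold change -1.70, SE 0.56, edgeR adjusted p = 0.0176).

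Gli2 had 0.159 to 3.76 CPM in UT (median 0.823 CPM) and 1.69 to 5.74 CPM in U, and was 3.02-fold lower (log2 fold change -1.60, SE 0.50, edgeR adjusted p = 0.0128). Ptch1 had 0.869 to 9.72 CPM in UT (median 4.31 CPM) and 4.30 to 12.1 CPM in U, and was 2.54-fold lower (log2 fold change -1.35, SE 0.40, edgeR adjusted p = 0.00985). Gli1 had 0.238 to 1.53 CPM in UT (median 1.05 CPM) and 1.11 to 2.82 CPM in U. Its log2 fold change of -1.01 (SE 0.36, edgeR adjusted p = 0.0255) stood at the fold threshold, and without UT 4, the library with the kidney tubule markers, it was -0.91 and not called. Without U 2R it was -0.79, with RNA integrity as a covariate it was -0.96, again not called, and the call was also lost without UT 2, UT 5L, UT 10 or U 3R. With mice 1 to 7 and the untreated mice, Shh (edgeR adjusted p = 0.101) and Gli1 were not called. With 1 library per mouse and group, which leaves 3 U samples, Ptch1 and Hhip were called, and Shh (edgeR adjusted p = 0.166), Gli2 (0.101), Bmp5 (0.121) and Gli1 (0.125) were not.

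Smo had 32.2 to 123.4 CPM in UT (median 53.7 CPM) and 38.3 to 61.1 CPM in U, with a log2 fold change of 0.27 and a 95% interval of -0.23 to 0.77. Bmp4 had 0.432 to 20.2 CPM in UT (median 7.71 CPM) and 4.03 to 8.57 CPM in U. Its spread was far wider in UT, and its log2 fold change of 0.08 had a 95% interval of -0.89 to 1.06. In the same libraries, smooth muscle markers summed to 387 to 2640 CPM in UT and 1907 to 3521 CPM in U, and adipocyte markers to 10.2 to 8985 CPM in UT. Fibroblast markers summed to 1565 to 6475 CPM in UT and 1732 to 3331 CPM in U. General and basal urothelium markers ran from 1416 to 15368 CPM in UT (median 8226 CPM) and from 1122 to 2137 CPM in U (median 1808 CPM). Leukocyte markers, 8 genes, had a median of 419 CPM in UT and 150 CPM in U. The part of these cells was not tested.

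**Figure D3:**
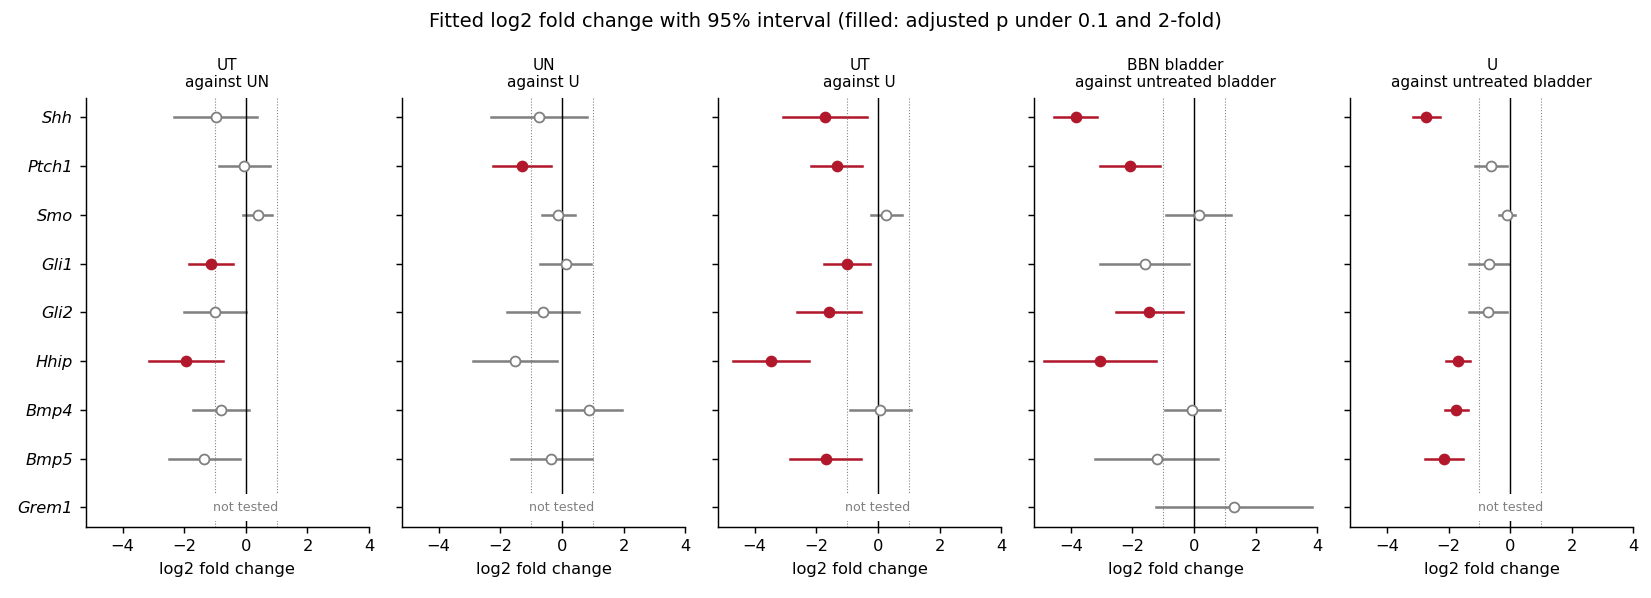
Fitted log2 fold change of each gene with its 95% interval (horizontal axes) in 5 comparisons, from edgeR. Filled red points passed an adjusted p under 0.1 and a 2-fold change, dotted lines mark 2-fold. Hhip is below 0 in all 5 panels, Smo lies between -0.11 and 0.38, and Grem1 was tested only in the bladders.

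The opposite side of the tract, UN, was compared with normal ureter to see what BBN-exposed tissue without visible cancer shows. Only Ptch1 was called lower, 1 of 8 members tested, where 1.21% of the 15662 genes tested were called lower and 12.4% higher. Ptch1 had 0.214 CPM in UN 6, a median of 4.19 CPM and 8.20 CPM at the highest in UN, against 4.30 to 12.1 CPM in U, and the ranges overlapped. It was 2.46-fold lower (log2 fold change -1.30, SE 0.46, edgeR adjusted p = 0.0617). The call was lost without UN 3 (adjusted p = 0.129), without any of U 1R, U 1L, U 2R, U 2L and U 3R (up to 0.118), and with 1 library per mouse and group (0.274). In the same libraries the median of the general and basal urothelium markers was 4651 CPM in UN and 1808 CPM in U, that of smooth muscle markers 1030 CPM in UN and 2979 CPM in U, and that of adipocyte markers 7392 CPM in UN and 15605 CPM in U. Their part was not tested.

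Hhip had 0.914 to 8.99 CPM in UN (median 2.28 CPM), and its log2 fold change of -1.52 against U (SE 0.66, edgeR adjusted p = 0.128) was not called. It was called without UN 6 (log2 fold change -1.77, edgeR adjusted p = 0.0927) and without UN 1 (-1.93, adjusted p = 0.0676), the library with the highest Hhip of the group, and also without UT 2 or UT 6, which bear only on the spread. It was called as well with UN and U alone (edgeR adjusted p = 0.0331), with RNA integrity as a covariate (0.0591), by DESeq2 (adjusted p = 0.0739) and by voom (0.0121). Shh had 0 CPM in UN 2, the library nearly without urothelium markers, a median of 4.67 CPM and 9.21 CPM at the highest. Its log2 fold change was -0.75 with a 95% interval of -2.30 to 0.80, and -0.53 without UN 2. Gli2 had 0.601 to 6.12 CPM in UN (median 3.19 CPM, log2 fold change -0.61, 95% interval -1.77 to 0.56), and Gli1 0.822 to 3.37 CPM (median 1.50 CPM, log2 fold change 0.12, 95% interval -0.71 to 0.95). Neither was called.

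Bmp4 had 3.21 to 21.2 CPM in UN (median 15.8 CPM), with 5 of 7 libraries at 8.22 CPM or above. The 95% interval of its log2 fold change, 0.88, ran from -0.20 to 1.96, and it was not called (edgeR adjusted p = 0.267). Bmp5 had 0.668 to 4.06 CPM (median 2.19 CPM) and a log2 fold change of -0.35 (95% interval -1.67 to 0.97). Smo had 15.4 to 79.7 CPM (median 47.8 CPM) and a log2 fold change of -0.11 (95% interval -0.65 to 0.43). The intervals in UN were wide beside those of the untreated tissues, and the common dispersion was 0.390 among UN, 0.352 among UT and 0.0363 among U libraries.

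Tumor side and opposite side were then compared directly. Hhip and Gli1, both targets of the pathway, were called lower in UT than in UN, 2 of 8 members tested, where 4.26% of 15662 genes tested were called lower and 1.32% higher. Ptch1, a target as well, was not called (log2 fold change -0.05, edgeR adjusted p = 0.953). The calls of Hhip and Gli1 both depended on the fit. Hhip had a median of 0.545 CPM in UT and 2.28 CPM in UN and was 3.85-fold lower (log2 fold change -1.94, SE 0.58, edgeR adjusted p = 0.0765). Gli1 had a median of 1.05 CPM in UT and 1.50 CPM in UN and was 2.19-fold lower (log2 fold change -1.13, SE 0.35, edgeR adjusted p = 0.0796). The ranges overlapped for both. With the mouse as a replicate block, over the 7 mice with both sides, the log2 fold changes were -1.97 for Hhip and -1.06 for Gli1 and neither was called (adjusted p = 0.798 for both); in that fit 0 genes of any kind were called, and 624 of 14875 had an unadjusted p under 0.05. Each of the calls was also lost in 7 of the 24 fits without a library, both without UT 2, UT 5R, UT 5L, UT 10, UN 2 (edgeR adjusted p = 0.116 for Hhip and 0.12 for Gli1) and UN 6 (0.215 and 0.214), Hhip also without UN 1 and Gli1 without UN 4.

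Within the same mouse, Gli1 was lower on the tumor side in 7 of 7 mice and Hhip in 6 of 7. The differences of Gli1 were uneven, from 3.37 CPM in UN and 0.238 CPM in UT in mouse 4 to 1.50 and 1.48 CPM in mouse 6. For Hhip the UN level of mouse 1 was 8.99 CPM and its UT level 0.237 CPM, and mouse 6 was the exception, with 3.64 CPM in UN and 3.93 CPM in UT. Bmp5 and Gli2 were lower in UT in 5 of 7 mice each, Shh in 4 with 1 at 0 on both sides, and Smo and Bmp4 in 4. Ptch1 was lower in 3 and higher in 4, and its log2 fold change over all libraries was -0.05 (95% interval -0.87 to 0.78). None of these other members was called. For Bmp5 the log2 fold change was -1.35 (SE 0.56, edgeR adjusted p = 0.145), for Gli2 -0.99 (adjusted p = 0.203), for Shh -0.98 (adjusted p = 0.336), for Bmp4 -0.80 (adjusted p = 0.25) and for Smo 0.38 (adjusted p = 0.288). Bmp5 was called without UN 3 or UT 6 and by DESeq2 (adjusted p = 0.0809), and its log2 fold change was -0.87 without UN 6 (edgeR adjusted p = 0.363) and -0.72 with RNA integrity as a covariate (0.814). Adipocyte markers ran from 2243 to 13316 CPM in UN and from 10.2 to 8985 CPM in UT, and general and basal urothelium markers from 40.4 to 13117 CPM in UN and from 1416 to 15368 CPM in UT. Their part was not tested.

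**Figure D4:**
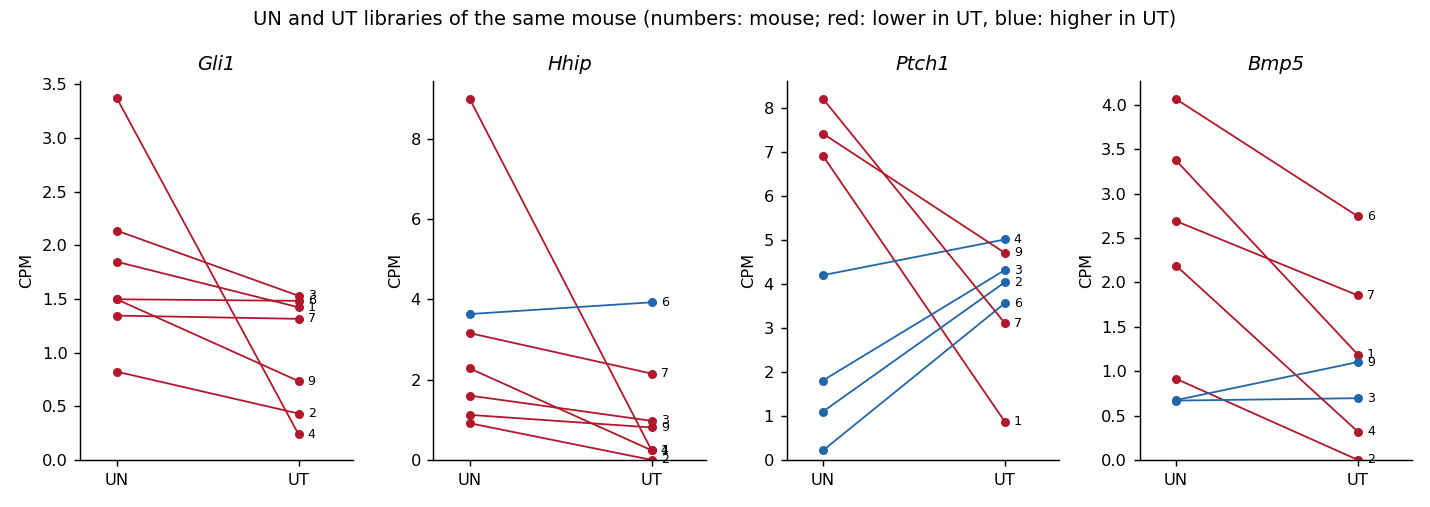
CPM of Gli1, Hhip, Ptch1 and Bmp5 in the UN and UT libraries of the same 7 mice, each line a mouse with its number. Red lines fall from UN to UT, as all 7 do for Gli1 and 6 of 7 for Hhip, and blue lines rise, as 4 of 7 do for Ptch1.

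Whether BBN-exposed ureter and bladder moved apart was tested as the difference of their effects, UN against U minus BBN bladder against untreated bladder. Shh was called, 1 of 9 members, where 1.52% of the 18799 genes tested were called higher by this measure and 0.543% lower. Shh was not called in UN against U, and its log2 fold change was lower in bladder by 3.09 (SE 0.70, edgeR adjusted p = 0.0199). This difference was called in all 26 fits without a library. This fit takes all libraries as independent, although UN and BBN bladder, and U and untreated bladder, come from the same mice. With the mouse as a block, over the mice with both organs, the difference was 3.06 (edgeR adjusted p = 0.0736) and still called, and with 1 library per mouse and group, which leaves 3 U samples, it was 3.02 and not called (0.206). The starting levels differed, 64.5 ± 7.39 CPM (SD, n = 3) in untreated bladder and 7.57 ± 2.29 CPM (SD, n = 6) in U, while BBN bladder and UN ended at 3.78 ± 2.23 CPM (SD, n = 10) and 4.99 ± 3.43 CPM (SD, n = 7). Luminal urothelium markers had medians of 15523 CPM in untreated bladder and 917 CPM in BBN bladder, and of 1611 CPM in U and 636 CPM in UN. Their part in the difference was not tested. For the other members the difference was not called by edgeR with all libraries. On the log2 scale it was 1.71 for Gli1 (edgeR adjusted p = 0.32), 1.53 for Hhip (adjusted p = 0.57) and 0.94 for Bmp4 (adjusted p = 0.47). For Grem1 no difference is given, since it was at 0 in all U libraries. For Hhip it was 2.76 without libraries under 8000000 counts (edgeR adjusted p = 0.0498), 2.34 with RNA integrity as a covariate (0.0975) and 2.70 by voom (adjusted p = 0.0161), and was called in these 3 fits. By voom Gli1 (1.91, adjusted p = 0.0441), Bmp4 (1.14, 0.0691) and Bmp5 (2.12, 0.0852) were called as well, the last at 0.84 by edgeR.

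Grem1 was at 0 in all 6 U libraries, which together hold 93344835 counts, and it was seen in all UT, all BBN bladder and all untreated bladder libraries and in 6 of 7 UN libraries. Taking 3 counts over the U group as the limit that a count of 0 allows (0.0321 CPM), its mean was at least 22.2-fold higher in UT, at least 11.99-fold higher in UN, at least 112-fold higher in BBN bladder and at least 49.6-fold higher in untreated bladder, by counting error only. Single libraries set these bounds. Without UT 4 the bound was 10.3-fold for UT, without BBN bladder 2 it was 44.2-fold for BBN bladder, and without untreated bladder 3 it was 32.3-fold for untreated bladder. The levels were low, with 0.0695 to 4.53 CPM in UT (median 0.308 CPM) and 0 to 1.10 CPM in UN (median 0.334 CPM), and rest on 102 counts over all UT and 34 over all UN libraries. UT 4, the library with the kidney tubule markers, was the highest of UT at 4.53 CPM. Grem1 was under the filter on low counts in the ureter fit and was not tested there.

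Of 29 further genes of the Hedgehog pathway, 28 were tested in the bladders, with 3 called lower and 0 higher in BBN bladder, beside 5.74% of all genes tested called lower and 7.61% higher. These were Scube2, which helps release the ligand, 35.2-fold lower at 3.73 ± 4.31 CPM (SD, n = 10) against 171 ± 12.8 CPM (SD, n = 3), the coreceptor Gas1, 3.85-fold lower, and Adcy5, an adenylate cyclase, 3.33-fold lower (adjusted p = 0.00026, 0.00147 and 0.00633 from edgeR). The median log2 fold change of the list was -0.37, beside 0.24 over all genes tested. In UT against U, 7 of 27 genes were called lower and 4 higher, beside 12.3% lower and 18.6% higher of all genes. Scube2 was 19.6-fold lower, at 1.30 ± 1.41 CPM (SD, n = 11) against 21.3 ± 6.12 CPM (SD, n = 6), and the transcription factor Foxl1, a target of the pathway, 5.30-fold lower (adjusted p = 3.97e-05 and 0.000215 from edgeR). Adcy5 and Ptchd4 were lower by 7.05-fold and 5.26-fold, and Scube1 was 4.57-fold higher (adjusted p = 0.000383, 0.0072 and 0.0262 from edgeR). Called targets went both ways, as Foxf2 was 3.34-fold higher and Foxf1 2.71-fold lower (adjusted p = 0.066 and 0.0575 from edgeR). The median of the list was -0.29, beside 0.11 over all genes.

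In UN against U, Scube2 and Foxl1 were the 2 of 27 genes called, 3.64-fold and 3.51-fold lower (adjusted p = 0.0659 and 0.0196 from edgeR), beside 1.21% of all genes called lower. In UT against UN Scube2 was the only one of 27, 5.39-fold lower (edgeR adjusted p = 0.0726), beside 4.26% of all genes called lower, and this call was lost with the mouse as a block, where 0 genes were called. In the difference of effects Gas1 was the 1 of 29 called, beside 1.52% of all genes called higher. Its log2 fold change after BBN was lower in bladder than in UN by 1.56 (edgeR adjusted p = 0.0488, and 0.304 with 1 library per mouse and group). Between the untreated organs, 5 of 27 genes were called lower in U and 3 higher, beside 14.3% lower and 15.7% higher of all genes, among them Scube1 (44.3-fold lower), Foxf2 (11.4-fold lower) and Scube2 (6.25-fold lower), and Ptchd4 (12.5-fold higher) and Adcy5 (2.55-fold higher). UT and UN were both set against the same U libraries.

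Of 51 further BMP genes, 42 were tested in the bladders, with 9 called lower and 1 higher in BBN bladder, beside 5.74% lower and 7.61% higher of all genes. The ligands Bmp2, Bmp7 and Bmp3 were lower by 9.88-fold, 5.47-fold and 5.45-fold, and the antagonist Chrdl1 by 5.52-fold, while the antagonist Chrdl2 was 5.61-fold higher (adjusted p from 5.55e-05 to 0.0637 from edgeR). Bmp2 had 8.57 ± 5.90 CPM (SD, n = 10) in BBN bladder and 98.5 ± 4.39 CPM (SD, n = 3) in untreated bladder. The median log2 fold change of the list was -0.49, beside 0.24 over all genes tested. In UT against U, 7 of 43 genes were called lower and 2 higher, beside 12.3% lower and 18.6% higher of all genes. Hemojuvelin (listed as Hfe2), a BMP coreceptor, was 16.9-fold lower, Smad9, a signal transducer of BMP receptors, 7.81-fold, Chrdl1 5.62-fold, the ligand Gdf5 4.53-fold and Bmp2 4.44-fold (adjusted p from 4.25e-05 to 0.0161 from edgeR). The median was -0.28, beside 0.11 over all genes.

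In UN against U, 3 of 43 BMP genes were called higher and 1 lower, beside 12.4% higher and 1.21% lower of all genes. These were the ligand Gdf6 (3.92-fold), the antagonist Fst (2.53-fold) and the target Id4 (2.44-fold), which were higher, and Bmp2, 2.24-fold lower (adjusted p from 0.0131 to 0.0431 from edgeR). In UT against UN, 2 of 43, Hfe2 and Smad9, were called lower, 9.22-fold and 3.29-fold (adjusted p = 0.073 and 0.079 from edgeR), beside 4.26% of all genes. Both calls were lost with the mouse as a block, with UT and UN alone, with RNA integrity as a covariate and by voom, where 0 genes were called. Hfe2 rested on low values there, with means of 1.60 CPM on the UN side (SD 2.50, n = 7) against 0.230 CPM (SD 0.273, n = 11) for UT. In the difference of effects Bmp3, Bmp2, Id4 and Fstl1 were called, 4 of 44, each with a lower BBN effect in bladder than in UN, by 1.94 to 2.33 on the log2 scale (edgeR adjusted p from 0.0205 to 0.0655), beside 1.52% higher and 0.543% lower of all genes. These 4 were called with the mouse as a block too, and none with 1 library per mouse and group (adjusted p from 0.185 to 0.339). Between untreated organs, 10 of 44 were called lower in U and 8 higher, beside 14.3% lower and 15.7% higher of all genes. Hfe2 was called higher in U, where its mean was 3.45 CPM against 0.0666 CPM in untreated bladder. Gdf5 and the antagonist Bmper were 14.0-fold and 9.48-fold higher in U, and the targets Id4 and Msx2 6.90-fold and 6.55-fold lower. The target Msx1 went the other way, 2.55-fold higher in U (edgeR adjusted p = 0.00455).

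The genes most like each member in their pattern were sought as those with the highest Spearman correlation of CPM over the 37 libraries, among 18974 genes. These libraries share mice, depth and the differences between groups, so the values are descriptive only. For Shh these were Rnf207 (0.86), Gnao1 (0.85) and Prom2 (0.84), for Hhip Rgs7bp (0.89), Apba1 and Lonrf2 (both 0.86), and for Gli2 Tmtc2 (0.91), Gnao1 (0.90) and Mrvi1 (0.87). For Ptch1 they were Cog7 (0.91), Tmem201 and Pigg (both 0.90), for Smo Ap1ar (0.96), Ywhaz (0.95) and Nsun2 (0.94), and for Gli1 Scara5 (0.77), Prrg3 and Shh (both 0.73). For Bmp4 they were the smooth muscle gene Tagln (0.80), Lmcd1 (0.78) and Tbx4 (0.77), for Bmp5 Ctnnd2 (0.86), Foxp2 and Tenm3 (both 0.85), and for Grem1 Wnt2 (0.80), Ccdc68 and Galnt9 (both 0.77).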

How the data were processed

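Libraries were made from total RNA with the SMARTerHT and Nextera XT kits. The authors mapped the reads to GRCm38 (mm10) and deposited the estimated counts of each gene symbol without normalization, of which 21.1% of the nonzero values were fractional. The submitters' processing notes name TopHat2 2.1.1 and Cuffdiff 2.2.1, and strand in counting is not stated. Each of the 37 columns carried the name of 1 library. Counts were rounded before testing. CPM is the count per 1000000 of the library total, and library totals ran from 3558391 to 18794405.

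Groups were compared by edgeR 4.0.16 under R 4.3.3, with TMM normalization, filterByExpr and the quasi-likelihood test, at the study's thresholds (adjusted p under 0.1 and 2-fold). Of 4 fits, 1 held the ureters, 1 the bladders, 1 the untreated organs and 1 both organs for the difference of effects. Each covered all genes, and members were read from it. The procedure was tested on simulated data for 1 comparison of each fit. The simulation gave all groups of a fit the same dispersion and took libraries as independent. It does not cover the unequal dispersions and shared mice of these data. Alternatives were RLE normalization, no filter, DESeq2 1.42.0, limma 3.58.1 (voom with group weights), RNA integrity as a covariate, other sets of libraries, the mouse as a block, and each library left out. Both sides of a mouse in U (3 mice), and of mouse 5 in UT, entered as independent samples, so p-values there may be too small.

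Mouse numbers in the labels pair UT with UN, both of these with BBN bladder, and U with untreated bladder; the difference of effects took them as independent, with the mouse as a block added after seeing the data. Deviations from the group means correlated between UT and UN of a mouse at -0.154 to 0.673 (median 0.0646, 7 pairs), beside a median of -0.0209 between different mice, and between UN and BBN bladder of a mouse at -0.260 to 0.553 (median -0.131). No libraries were copies (chi-square per degree of freedom at least 7.71). The members, the lists of 29 Hedgehog and 51 BMP genes and the marker lists were chosen with earlier results of these data known. Named were all 9 members, up to 5 called genes of each list and comparison by size of change, and the 3 genes most like each member. Further called targets were named beside Foxl1 in UT against U and beside Id4 and Msx2 between the untreated organs. Coordinates are those of GENCODE vM21 (GRCm38). Python 3.11.15 with pandas 2.3.3 and scipy 1.17.1 made the other values.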

Additional observations from a re-analysis of the deposited data

Results flagged for a closer look

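Among 26 sets of 6 to 10 libraries (each member in UN, U and BBN bladder, without Grem1 in U, which was at 0), 7 held a library whose distance from its nearest neighbour was large beside the range of the group. For values of normal spread chance gives about 1 in 20 sets; CPM need not have that spread, and the sets share libraries. BBN bladder 2 was the highest of its group for Gli2 (7.35 CPM, the next at 3.23 CPM), Bmp4 (56.8 CPM, the next at 32.8 CPM) and Grem1 (23.2 CPM, the next at 4.26 CPM). BBN bladder 3, with the fewest counts, was the highest for Bmp5 (16.0 CPM, the next at 6.31 CPM), and BBN bladder 5 the highest for Gli1 (2.52 CPM, the next at 1.43 CPM). UN 1 was the highest of UN for Hhip (8.99 CPM, the next at 3.64 CPM), and U 2R the highest of U for Smo (61.1 CPM, the next at 45.9 CPM).

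The effect of BBN on Shh differed between the organs by a log2 difference of 3.09 (adjusted p = 0.0199 from edgeR), with the lower fold change in bladder. Shh itself was not called in UN against U, and the part of luminal urothelium in the difference was not tested. The difference was not called with 1 library per mouse and group (edgeR adjusted p = 0.206).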

How the results depend on the processing

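The comparison of UT with UN depended most on the fit. Beside 874 genes called by edgeR, 1383 were called without the filter and 1394 by DESeq2, 26 with mice 1 to 7, 13 with 1 library per mouse and group and 6 without libraries under 8000000 counts. With the mouse as a replicate block, the same mice without the block (added after seeing the data), UT and UN alone, RNA integrity as a covariate or voom, 0 genes were called, with 624, 1076, 2810, 886 and 2089 at an unadjusted p under 0.05. Members called fell from 2 to 0 in these 5 fits and in the 3 before them with 26, 13 and 6 genes. Without 1 library the count ran from 5 (UT 5L) to 1863 (UN 7), and members from 0 to 3. In the untreated organs the block called 4599 genes in place of 4592 and the same 4 members.

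In UN against U, 1 library per mouse and group called 160 genes in place of 2139 and 0 members in place of 1, while Ptch1 and Hhip, 2 members, were called by DESeq2, voom, RNA integrity, without low totals and with UN and U alone. Without the filter the count of 2 adds Grem1, which is at 0 in all U, so that this call restates the zeros. In UT against U, 1 library per mouse and group left 2 of 6 members. In bladder, 2410 genes became 5824 by DESeq2 (4668 higher and 1156 lower, beside 1374 and 1036), 5674 by voom and 4409 with mice 1 to 7. In the difference of effects, 387 genes became 931 by DESeq2 (456 higher and 475 lower, beside 285 and 102), 1832 by voom, 719 with RNA integrity and 1018 without low totals, and 1 member, Shh, became 5 by voom (with Gli1, Hhip, Bmp4 and Bmp5) and 2 in each of the last 2 fits (with Hhip). Of alternatives added after seeing the data, the mouse as a replicate block called 617 genes and Shh, the same mice with no block 609 and Shh, and 1 library per mouse and group 72 and 0 members. RLE moved the median log2 fold change of all genes in bladder from 0.24 to 0.35 and of the difference from -0.10 to -0.24.

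Without 1 library, genes called ran from 1033 (untreated bladder 1) to 2727 in bladder with 2 to 4 members, from 148 (untreated bladder 3) to 589 (UN 6) in the difference with 1 to 2, from 1610 to 2703 in UN against U with 0 to 2, from 4623 to 5147 in UT against U with 5 to 6, and from 4471 to 4755 in the untreated organs with 4 to 5. The 2 in the difference (without BBN bladder 2) and the 5 in the untreated organs (without untreated bladder 2) add Grem1, which restates the zeros of U. Of 999 such values of members 939 kept direction and side of the thresholds, and of 441 under other alternatives 386. Those that turned were not called. They were Ptch1 in UT against UN (0.0036 with mice 1 to 7, and -0.23 to 0.20 without 1 library), Smo (-0.24 to 0.0127) and Gli1 (-0.0564 to 0.34) in UN against U, Bmp4 in UT against U (-0.44 by voom, and -0.14 to 0.21), and in bladder Bmp4 (0.0501 by RLE and 0.0498 by DESeq2, 0.0867 with mice 1 to 7, and -0.22 to 0.0713) and Smo (-0.0776 by voom and -0.0687 with mice 1 to 7), and Smo in the difference (0.0443 with the replicate block). The cause of these changes was not tested. For the untreated organs, leaving out low totals or mice after number 7 leaves the fit as it is. At low CPM, as for Gli1, Gli2 and Grem1, counting limits the precision.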
